A study of Homo sapiens with 6 samples.

Results

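The heat-shock chaperones of the cytosol and of mitochondria were followed in cultured human dermal fibroblasts in which ZNF469, a zinc-finger gene, had been knocked down. The set was fixed by name as HSPA1A, HSPA1B, HSPA8, HSPH1, DNAJB1, HSP90AA1, HSP90AB1, HSPB1, HSPD1 and HSPE1, and all 10 were found among the 21151 genes of the deposited count table. The cells were CCD-1064Sk fibroblasts, a line grown from human skin, kept in IMDM medium. Cells that carried short-hairpin RNA against ZNF469 (shZNF469, genotype label ZNF469 knockdown, 3 libraries) were set against cells that carried a control hairpin (shControl, genotype label WT, 3 libraries). A short-hairpin RNA is processed into a small RNA that directs the degradation of a matching transcript. The study asked how ZNF469 affects production of extracellular matrix. The labels call the 3 libraries of a group technical replicates, so p-values reflect differences among these libraries alone and carry no information on separate cultures. How many hairpins and clones were used is not given in the sources used here.

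Of the 10 chaperone genes, 3 were lower in shZNF469 and 0 were higher in edgeR's quasi-likelihood test, at an adjusted p under 0.05, where 5.34% of all tested genes were lower and 4.56% higher. The 3 were HSP90AA1, the stress-inducible cytosolic HSP90, HSPH1, an HSP110, and HSPD1, the mitochondrial HSP60, each at about 85% of its shControl level (84.6% to 85.9%). HSP90AB1, the constitutive cytosolic HSP90, was at 103% of shControl and was not called. The inducible HSP70 pair HSPA1A and HSPA1B, the J-domain gene DNAJB1, HSPB1 and HSPE1 were not called either, and their groups overlapped in scaled counts.

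Heat-shock chaperones hold unfolded proteins and help them fold. HSP70 proteins bind exposed stretches of a client in a cycle driven by ATP, J-domain proteins such as DNAJB1 bring clients and trigger ATP hydrolysis, and HSP110 proteins such as HSPH1 exchange the nucleotide. HSP90 acts later, on clients such as kinases and steroid receptors, while small heat-shock proteins hold clients without ATP. In mitochondria, HSP60 forms a folding chamber that HSP10 closes. After heat or other damage to proteins, the transcription factor HSF1 forms trimers and binds heat-shock elements, which are runs of the unit nGAAn in alternating direction, near many of these genes. Fibroblasts that secrete collagen also use the separate chaperones of the endoplasmic reticulum.

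Because HSF1 binds such runs, the promoter windows of the members were read from RefSeq on GRCh38.p14, from 250 bases before to 50 bases after each annotated start. An entry was found for all 10 members, with 16 windows in all. An element of 3 units was taken as GAANNTTCNNGAA or TTCNNGAANNTTC, which are each other's reverse complement. An element of 2 units was taken as GAANNTTC or TTCNNGAA, each its own reverse complement and each contained in an element of 3 units. Below are windows of the HSP90 pair, of HSPA8, of the paired mitochondrial genes and of the near-identical HSPA1A and HSPA1B. Where a gene has several windows, only the window that held a match is printed. Each window is written 5′ to 3′ along its gene, with every matched stretch in capitals.
HSP90AA1, minus strand, chr14:102086995-102087294: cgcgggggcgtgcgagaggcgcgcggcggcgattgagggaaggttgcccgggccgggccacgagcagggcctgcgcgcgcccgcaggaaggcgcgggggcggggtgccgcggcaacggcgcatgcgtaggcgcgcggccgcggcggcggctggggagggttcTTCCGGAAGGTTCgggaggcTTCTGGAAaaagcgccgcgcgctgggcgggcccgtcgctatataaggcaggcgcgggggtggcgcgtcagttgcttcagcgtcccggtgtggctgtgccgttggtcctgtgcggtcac
HSP90AB1, plus strand, chr6:44247693-44247992: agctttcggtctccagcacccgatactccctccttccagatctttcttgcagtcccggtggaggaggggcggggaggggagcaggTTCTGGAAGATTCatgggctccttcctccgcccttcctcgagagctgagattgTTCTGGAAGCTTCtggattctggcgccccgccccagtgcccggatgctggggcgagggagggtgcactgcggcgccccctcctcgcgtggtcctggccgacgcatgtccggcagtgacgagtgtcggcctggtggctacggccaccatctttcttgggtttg
HSPA8, minus strand, chr11:123062087-123062386: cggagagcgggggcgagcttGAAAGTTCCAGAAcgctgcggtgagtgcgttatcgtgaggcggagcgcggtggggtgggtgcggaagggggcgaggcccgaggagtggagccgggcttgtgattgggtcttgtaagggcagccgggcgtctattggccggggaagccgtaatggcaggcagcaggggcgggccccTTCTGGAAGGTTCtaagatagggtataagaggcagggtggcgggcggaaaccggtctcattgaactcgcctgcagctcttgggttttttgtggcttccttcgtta
HSPD1, minus strand, chr2:197499791-197500090: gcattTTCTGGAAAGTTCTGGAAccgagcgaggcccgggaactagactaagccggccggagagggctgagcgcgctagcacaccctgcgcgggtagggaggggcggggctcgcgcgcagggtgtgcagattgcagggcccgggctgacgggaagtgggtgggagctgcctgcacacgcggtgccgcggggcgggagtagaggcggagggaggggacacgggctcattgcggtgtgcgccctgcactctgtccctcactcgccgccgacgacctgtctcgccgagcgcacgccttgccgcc
HSPE1, plus strand, chr2:197500129-197500428: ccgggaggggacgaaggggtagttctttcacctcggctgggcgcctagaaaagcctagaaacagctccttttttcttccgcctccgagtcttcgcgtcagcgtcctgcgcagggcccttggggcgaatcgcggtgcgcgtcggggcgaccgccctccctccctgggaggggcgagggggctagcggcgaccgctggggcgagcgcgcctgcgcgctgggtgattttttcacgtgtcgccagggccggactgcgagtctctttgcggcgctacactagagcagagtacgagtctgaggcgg
HSPA1A, plus strand, chr6:31815293-31815592: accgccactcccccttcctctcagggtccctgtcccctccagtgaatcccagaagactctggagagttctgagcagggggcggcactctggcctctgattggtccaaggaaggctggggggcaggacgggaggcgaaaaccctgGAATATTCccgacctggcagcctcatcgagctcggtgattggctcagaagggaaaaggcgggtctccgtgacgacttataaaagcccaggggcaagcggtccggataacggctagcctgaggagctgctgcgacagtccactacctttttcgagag
HSPA1B, plus strand, chr6:31827488-31827787: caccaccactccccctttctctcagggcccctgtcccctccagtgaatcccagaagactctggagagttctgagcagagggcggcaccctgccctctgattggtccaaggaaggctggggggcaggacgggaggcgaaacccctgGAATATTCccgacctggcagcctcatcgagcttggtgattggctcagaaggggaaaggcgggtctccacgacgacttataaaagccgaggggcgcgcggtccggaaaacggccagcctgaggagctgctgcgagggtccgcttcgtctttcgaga

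HSPA8, HSP90AA1, HSP90AB1 and HSPD1 held an element of 3 units, which makes 4 of 10 members and 4 of their 16 windows. In all of RefSeq, 172 of 35116 such windows held one, or 0.490%, and 0.608% of 27305 genes. HSP90AA1 and HSPD1 were lower in shZNF469, whereas HSPA8 and HSP90AB1 were not called. An element of 2 units was found in 8 of 10 members, the exceptions being HSPH1 and HSPE1, and in 9 of 16 windows. In all of RefSeq it was found in 13.5% of windows and 16.2% of genes. HSPH1, which was lower, thus held neither kind in its window. In HSPA1A the match lay 106 to 99 bases before the start and in HSPA1B 105 to 98 bases before it, and these windows were identical at 277 of 301 aligned positions (92.0%). HSP90AA1 has 2 annotated starts, HSPD1 2, HSP90AB1 3 and DNAJB1 3, and counts per gene do not tell which was used. For HSP90AA1, HSPD1 and HSP90AB1, the windows not printed above held no match of either kind. The match is a description of letters and says nothing of binding.

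**Figure D1:**
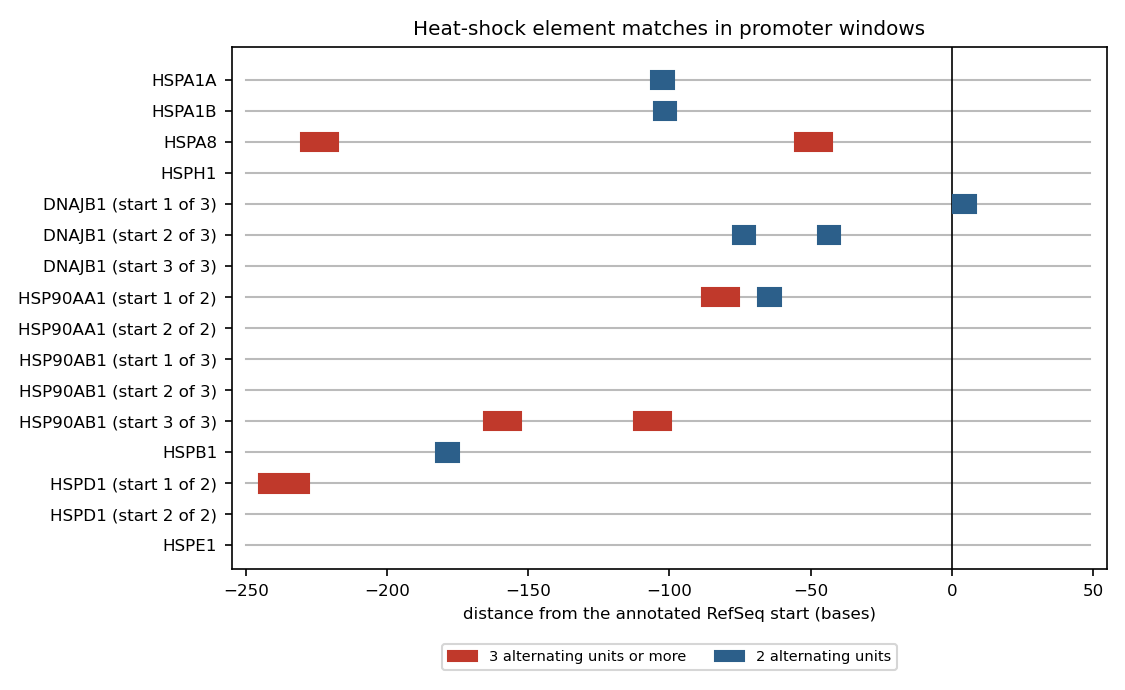
Position of heat-shock element matches in the promoter windows of the members, in bases from the annotated start on the horizontal axis, with 1 line for each window and longer elements distinguished from those of 2 units. The matches of HSPA1A and HSPA1B lie at almost the same place, and the windows of HSPH1 and HSPE1 hold none.

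Total counts ran from 35417366 to 48298264 per library. ZNF469 had 21.4, 18.3 and 18.5 CPM in shZNF469 and 39.7, 46.2 and 39.9 CPM in shControl (CPM, counts divided by the TMM-scaled library total and put on a common scale), a log2 fold change of -1.12 (SE 0.09, edgeR adjusted p = 0.000873). All log2 fold changes are shZNF469 minus shControl. The main axis of a principal component analysis of log2(CPM + 1) took up 39.9% of the variance; on it the shZNF469 libraries lay between 17.4 and 18.4 and the shControl libraries between -21.5 and -13.2. All 11 fibroblast markers were listed, of which 3 were lower in shZNF469 (COL1A1, COL1A2 and COL3A1) and 1 was higher (VIM). Their median log2 fold change was 0.12, and it was negative for 4 of the 11. Their summed level was 34433 to 36766 CPM in shZNF469 and 56841 to 59163 CPM in shControl. Of 10 keratinocyte markers 3 were listed, 1 higher (DSP) and 1 lower (KRT10), with KRT5 and KRT14 not listed and sums of 119 to 127 CPM in shZNF469 and 109 to 119 CPM in shControl. Of 7 melanocyte markers 2 were listed, of which PMEL was higher (log2 fold change 1.01), with sums of 77.8 to 87.2 CPM in shZNF469 and 62.7 to 63.9 CPM in shControl. Of 8 endothelial markers 4 were listed, without PECAM1 and CDH5, and 3 were tested. The sums of the 3 tested were 0.689 to 4.398 CPM in shZNF469 and 1.82 to 4.88 CPM in shControl. Of 10 immune markers CD14 and CD68 were listed, not PTPRC, with sums of 142 to 190 CPM in shZNF469 and 123 to 150 CPM in shControl. The part of these markers in the chaperone values was not tested. All 18 proliferation markers were lower in shZNF469 (median log2 fold change -1.03), and their part in the chaperone values was not tested. The share of counts from the 13 mitochondrially encoded genes was 3.90%, 3.61% and 4.08% in shZNF469 and 3.18%, 3.34% and 3.52% in shControl, with no overlap, and its part was not tested either. In bulk RNA, fewer cells of a kind and less RNA per cell cannot be told apart.

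Together the 10 genes gave 0.291%, 0.287% and 0.298% of all counts in the shZNF469 libraries and 0.313%, 0.306% and 0.319% in the shControl libraries. In TPM, the length-scaled abundance that the authors deposited, the sums were 3305, 3267 and 3312 in shZNF469 and 3604, 3594 and 3596 in shControl. The groups did not overlap on either scale. The 3 lower calls among 10 genes stand beside a background of 5.34% of the 16353 tested genes called lower and 4.56% called higher (9.90% in either direction). All 10 members passed the filter on low counts. In CPM, libraries of the groups did not overlap for 4 members (HSPA8, HSPH1, HSP90AA1 and HSPD1), all lower in shZNF469, and 15.7% of all tested genes were lower without overlap (31.4% in either direction). The log2 fold change was negative for 9 of 10 members, with a median of -0.13, against 0.00395 over all tested genes. It ran from -0.24 for HSPH1 to 0.04 for HSP90AB1. With DESeq2, 4 members were lower, HSPA8 being the addition, and 0 were higher, against 11.3% of 14552 genes in each direction. With limma on log2(TPM + 1), 0 were called and 4 were lower at an unadjusted p under 0.05, as in edgeR. Calls were lost when single libraries were left out. The members called lower came to 0, 3 and 1 without shZNF469 replicate 1, 2 and 3, and to 0, 0 and 0 without shControl replicate 1, 2 and 3. Over all tested genes the lower calls came to 388, 854 and 625 and to 333, 397 and 405 in the same order, against 874 in the main fit.

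**Figure D2:**
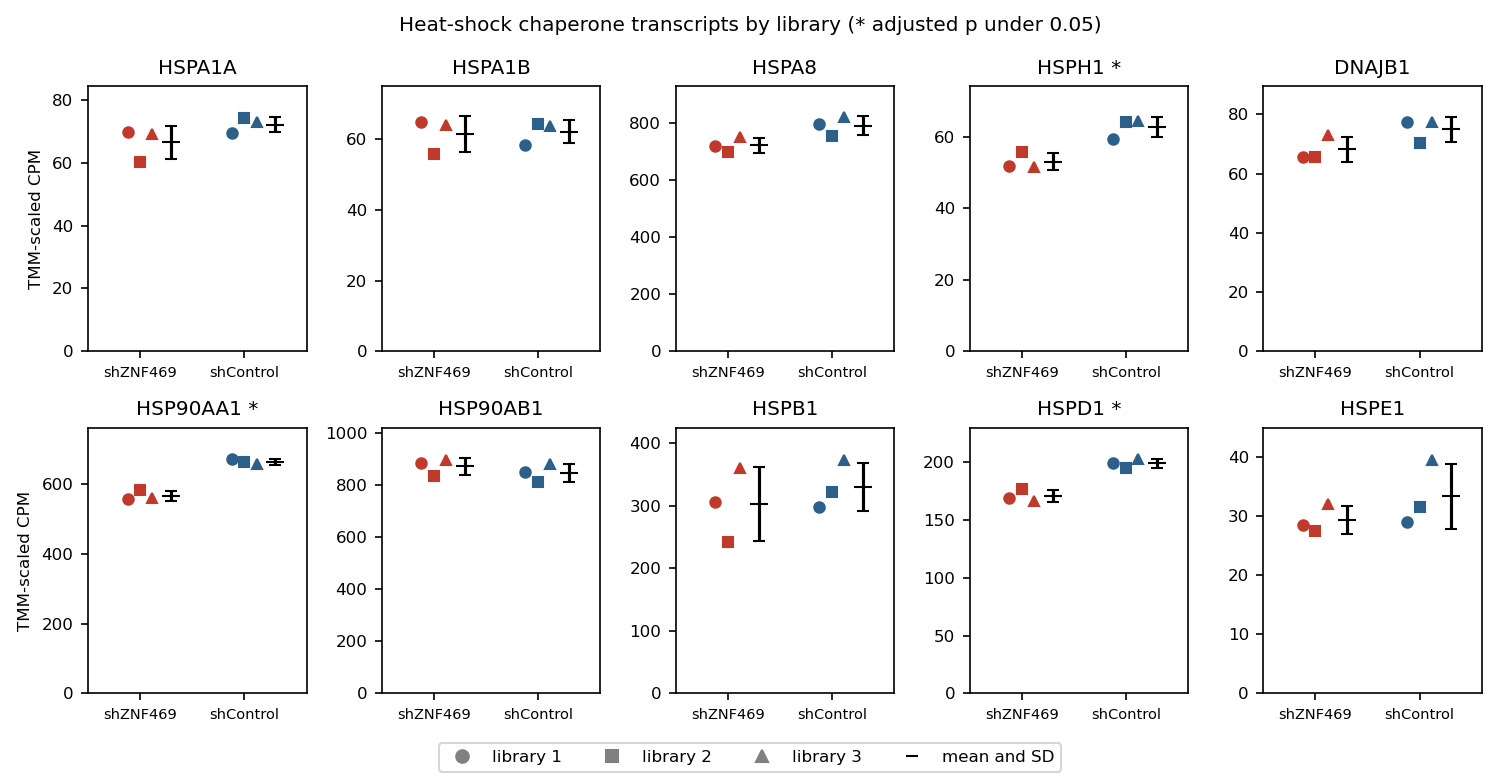
Scaled counts (CPM) of each of the 10 chaperone genes in the 3 shZNF469 and the 3 shControl libraries, 1 point for each library with the group mean and SD, and an asterisk at an adjusted p under 0.05. The groups stand apart on this scale, with shZNF469 lower, for HSPA8, HSPH1, HSP90AA1 and HSPD1, and overlap for the other genes.

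**Figure D3:**
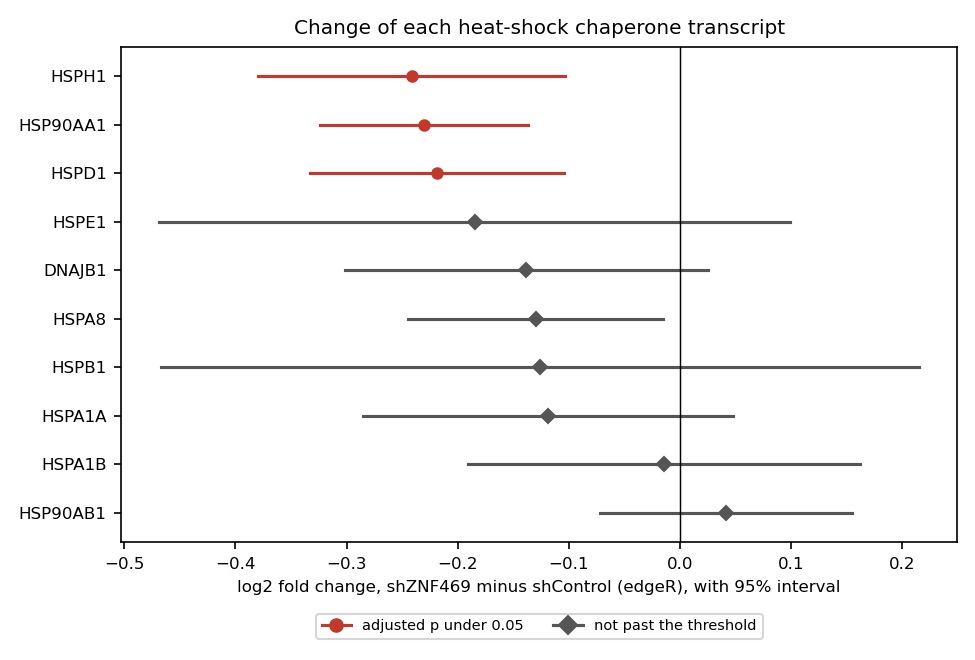
Log2 fold change (shZNF469 minus shControl) of the 10 genes with its 95% interval from the edgeR fit, called genes being marked. HSPH1, HSP90AA1 and HSPD1 lie between -0.24 and -0.22, and HSP90AB1 at 0.04.

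Levels between genes are compared in TPM, which is scaled by length. HSPB1 was highest at 864 ± 112 TPM in shZNF469 and 959 ± 70.6 TPM in shControl (SD, n = 3 each). HSP90AB1 followed at 784 ± 22.9 and 772 ± 24.6 TPM in shZNF469 and shControl, and HSPA8 at 737 ± 19.5 and 819 ± 32.5 TPM. HSP90AA1 stood at 403 ± 34.3 TPM in shZNF469 and 478 ± 28.5 TPM in shControl. Then came HSPD1, HSPE1, DNAJB1, HSPA1A and HSPA1B, with means over the 6 libraries of 183, 131, 73.9, 66.8 and 56.8 TPM, and HSPH1 at 26.9 TPM. In this order the library ranges overlapped between HSPB1 and HSP90AB1, HSP90AB1 and HSPA8, HSPD1 and HSPE1, and DNAJB1 and HSPA1A, and not between the other neighbours.

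HSPA8 encodes the constitutive cytosolic HSP70. Its level was 721, 700 and 752 CPM in the shZNF469 libraries and 799, 756 and 821 CPM in the shControl libraries. The highest shZNF469 library lay just under the lowest shControl library. The log2 fold change was -0.13 (SE 0.05, 95% interval -0.24 to -0.02), which edgeR did not call (adjusted p = 0.155). DESeq2 called it, with an adjusted p of 0.0465. With offsets for GC content and length it was -0.082 and not called. HSPA8 hosts small nucleolar RNA genes in its introns, of which SNORD14E is listed, with a mean count of 0.667.

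HSPA1A and HSPA1B encode the stress-inducible HSP70 and lie side by side on chromosome 6 (31815543 to 31817942 and 31827738 to 31830254, GRCh38.p14). HSPA1A had 69.9, 60.3 and 69.1 CPM in shZNF469 and 69.3, 74.1 and 72.9 CPM in shControl. HSPA1B had 64.8, 55.7 and 63.9 CPM in shZNF469 and 58.3, 64.2 and 63.6 CPM in shControl. The groups overlapped in CPM for both genes, and shZNF469 replicate 2 was the lowest of the 6 libraries for each. In TPM HSPA1A did not overlap, with 67.0, 61.5 and 62.2 in shZNF469 and 69.4, 73.7 and 67.1 in shControl. The log2 fold changes were -0.12 (SE 0.07) for HSPA1A and -0.01 (SE 0.08) for HSPA1B, with edgeR adjusted p-values of 0.376 and 0.940. HSPA1A was at -0.049 without shZNF469 replicate 2. The sign for HSPA1B turned positive without shZNF469 replicate 2 and without shControl replicate 2 or 3 (0.06, 0.02 and 0.000808).

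The coding sequences of HSPA1A and HSPA1B are identical at 1919 of 1923 bases, and 69.9% of the 100-base windows of HSPA1A also occur in HSPA1B, so the counting can split their reads and each value is uncertain. With both rows summed, the pair had 135, 116 and 133 CPM in shZNF469 and 128, 138 and 136 CPM in shControl. The groups overlapped, and the log2 fold change came to -0.07 (SE 0.07, edgeR adjusted p = 0.645). It was 0.000988 without shZNF469 replicate 2. HSPA1A supplied 51.9%, 52.0% and 51.9% of the sum in shZNF469 and 54.3%, 53.6% and 53.4% in shControl, with no overlap. Relative to HSPA8 in the same library, the summed counts were 0.187, 0.166 and 0.177 in shZNF469 and 0.160, 0.183 and 0.166 in shControl. This log2 ratio differed by 0.06 with overlapping groups (exact permutation test, two-sided, p = 0.5, adjusted p = 0.75 over 3 ratios).

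HSPH1 (chromosome 13, 31134973 to 31162388), which exchanges the nucleotide of HSP70, had 51.9, 55.8 and 51.6 CPM in shZNF469 and 59.5, 64.3 and 64.5 CPM in shControl. All shZNF469 libraries were below all shControl libraries. It was 1.18-fold lower, with a log2 fold change of -0.24 (SE 0.06, 95% interval -0.38 to -0.10, edgeR adjusted p = 0.045). The call was lost without shZNF469 replicate 1 or 3 (log2 fold changes of -0.23 and -0.22, adjusted p = 0.143 and 0.105). Without shControl replicate 1, 2 or 3 the log2 fold changes were -0.27, -0.22 and -0.22 and the edgeR adjusted p-values 0.0931, 0.166 and 0.148.

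DNAJB1, the J-domain partner of HSP70 in the heat-shock response, had 65.6, 65.7 and 73.2 CPM in shZNF469 and 77.5, 70.2 and 77.4 CPM in shControl. The highest shZNF469 library exceeded the lowest shControl library in CPM, but not in TPM (67.0, 71.6 and 70.5 in shZNF469, 82.5, 74.5 and 77.1 in shControl). Its log2 fold change of -0.14 (SE 0.07, 95% interval -0.30 to 0.02) was not called (edgeR adjusted p = 0.282). DNAJB1 shares 211 exon bases with TECR on the opposite strand, and no strand setting is given in the sources used here, so reads there cannot be told apart.

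Both cytosolic HSP90 genes were highly expressed. HSP90AA1 (chromosome 14, 102080742 to 102139749) had 557, 583 and 561 CPM in shZNF469 and 674, 664 and 657 CPM in shControl. All shZNF469 libraries lay below all shControl libraries. It was 1.17-fold lower, with a log2 fold change of -0.23 (SE 0.04, 95% interval -0.32 to -0.14, edgeR adjusted p = 0.0143). HSP90AB1 had 884, 834 and 896 CPM in shZNF469 and 851, 811 and 879 CPM in shControl. These groups overlapped, and the log2 fold change was 0.04 (SE 0.05, 95% interval -0.07 to 0.15, edgeR adjusted p = 0.689), and between 0.018 and 0.077 without each library in turn.

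The call for HSP90AA1 was lost without shZNF469 replicate 1 (log2 fold change -0.22, edgeR adjusted p = 0.0706). Without shControl replicate 1, 2 or 3 its log2 fold change was -0.21, -0.22 and -0.24, with adjusted p-values of 0.0927, 0.0744 and 0.0526. Its exons share 197 bases with WDR20 on the opposite strand.

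The ratio of HSP90AA1 to HSP90AB1 counts within a library does not depend on how libraries are scaled. It was 0.630, 0.699 and 0.625 in shZNF469 and 0.792, 0.819 and 0.748 in shControl. All shZNF469 libraries lay below all shControl libraries. The log2 ratio differed by -0.27 (exact permutation test, two-sided, p = 0.1, the smallest that 3 against 3 allows, adjusted p = 0.3 over 3 ratios). Without each library in turn the difference lay between -0.32 and -0.24. The coding sequences of the pair are identical at 75.1% of aligned positions, and 2.23% of the 100-base windows of HSP90AA1 and 1.59% of those of HSP90AB1 occur in another gene.

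**Figure D4:**
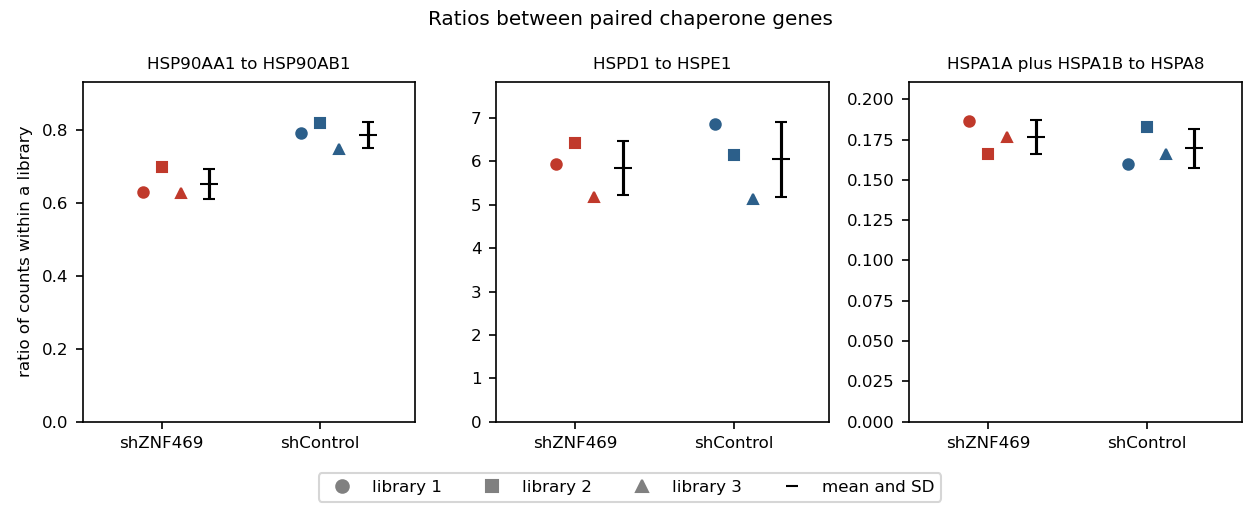
Within-library count ratios of HSP90AA1 to HSP90AB1, HSPD1 to HSPE1 and summed HSPA1A and HSPA1B to HSPA8, 1 point for each shZNF469 and shControl library with the group mean and SD. The HSP90 ratio is 0.625 to 0.699 in shZNF469 and 0.748 to 0.819 in shControl, and the groups overlap in the other ratios.

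HSPB1, a small heat-shock protein that binds unfolded clients and actin filaments, was the most variable member among shZNF469 libraries. It had 305, 243 and 360 CPM in shZNF469 and 297, 322 and 373 CPM in shControl. The coefficient of variation was 19.4% in shZNF469 and 11.6% in shControl, and the groups overlapped. The log2 fold change was -0.13 (SE 0.15, 95% interval -0.47 to 0.22, edgeR adjusted p = 0.683). It was 0.02 without shZNF469 replicate 2, -0.27 without shZNF469 replicate 3 and -0.034 without shControl replicate 3.

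HSPD1 and HSPE1 encode HSP60 and HSP10 and are read in opposite directions from 1 stretch of chromosome 2. In RefSeq, 104 bases lie between the first bases of the genes. HSPD1 (197486584 to 197500274) had 169, 176 and 167 CPM in shZNF469 and 199, 194 and 203 CPM in shControl. All shZNF469 libraries were below all shControl libraries in CPM. In TPM shZNF469 replicate 2 (187) exceeded shControl replicate 3 (184), and the groups overlapped. HSPD1 was 1.16-fold lower, with a log2 fold change of -0.22 (SE 0.05, 95% interval -0.33 to -0.10, edgeR adjusted p = 0.0339). HSPE1 had 28.5, 27.5 and 32.1 CPM in shZNF469 and 29.02, 31.6 and 39.5 CPM in shControl, and its groups overlapped. Its log2 fold change was -0.18 (SE 0.12, 95% interval -0.47 to 0.10, edgeR adjusted p = 0.425), and was -0.049 without shControl replicate 3.

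The call for HSPD1 was lost without shZNF469 replicate 1 or 3 (log2 fold changes of -0.21 and -0.20, edgeR adjusted p = 0.116 and 0.0765). Without shControl replicate 1, 2 or 3 the log2 fold changes were -0.21, -0.23 and -0.21 and the adjusted p-values 0.139, 0.108 and 0.127. The ratio of HSPD1 to HSPE1 counts was 5.94, 6.42 and 5.18 in shZNF469 and 6.85, 6.15 and 5.13 in shControl. This ratio overlapped between the groups and differed by -0.04 on the log2 scale (exact permutation test, two-sided, p = 0.8, adjusted p = 0.8 over 3 ratios). It was 0.040 without shZNF469 replicate 3 and 0.052 without shControl replicate 1, and between -0.16 and -0.03 without each of the other libraries. The genes share 281 exon bases on opposite strands, and 33.5% of the 100-base windows of HSPE1 and 3.90% of those of HSPD1 occur in another gene. Rows named as HSPD1 pseudogenes held 1.38% as many counts as HSPD1, and those of HSPE1 held 0.825%. The 18-base element printed in capitals for HSPD1 (chr2:197500068-197500085) lies 189 bases inside the first base of HSPD1 and 294 bases from the first base of HSPE1.

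The counts of this and the following lists stand beside 4.56% of all tested genes called higher and 5.34% called lower by edgeR. Of 5 genes for heat-shock factors and their regulators 4 were tested, and 2 were higher and 0 lower in shZNF469 (median log2 fold change 0.12). At an unadjusted p under 0.05, 1 was lower, HSBP1, which DESeq2 called. HSF1, the main activator of the heat-shock response, had 63.9, 57.5 and 63.8 CPM in shZNF469 and 52.5, 50.2 and 51.5 CPM in shControl. The groups did not overlap, and the log2 fold change came to 0.27 (SE 0.06, edgeR adjusted p = 0.0347), a call that was kept without shZNF469 replicate 2 and lost when any other library was left out. HSF4, best known from the lens, was at 4.02 ± 0.336 CPM in shZNF469 and 1.95 ± 0.228 CPM in shControl (SD, n = 3 each; log2 fold change 1.04, SE 0.16, edgeR adjusted p = 0.00966). HSF2 was at 17.0 ± 1.26 CPM in shZNF469 and 17.3 ± 0.472 CPM in shControl and was not called. HSBP1, whose product binds HSF1 and restrains it, had a log2 fold change of -0.33 (edgeR adjusted p = 0.0505), with no overlap between the groups in CPM. In TPM its groups overlapped, and limma on log2(TPM + 1) gave HSBP1 a log2 fold change of -0.135 (adjusted p = 0.681). HSF5 is not listed. The higher calls came to 0, 2 and 1 without shZNF469 replicate 1, 2 and 3 and to 1, 1 and 1 without shControl replicate 1, 2 and 3, and 1 was lower, HSBP1, without shZNF469 replicate 3.

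Among 25 other genes known to be induced by heat through HSF1, 4 were lower and 2 higher (median log2 fold change -0.06). Over all tested genes 5.34% were lower and 4.56% higher. SERPINH1, the collagen chaperone HSP47 of the endoplasmic reticulum, was at 789 ± 60.0 CPM in shZNF469 and 1105 ± 21.3 CPM in shControl (SD, n = 3 each; log2 fold change -0.49, SE 0.06, edgeR adjusted p = 0.00381). This call held under all 15 alternatives tried for it. The other lower genes were DNAJA1, CACYBP and AHSA1, and the higher genes were HSPB8 and HMOX1, which encodes a heme oxygenase. DNAJA1, CACYBP, AHSA1 and HSPB8 are counted again in other lists below. HSPA6, an HSP70 that is nearly silent without stress and was singled out after its values were seen, had 25, 25 and 39 counts in shZNF469 and 0, 29 and 0 counts in shControl and was not called. The lower calls came to 1, 3 and 5 without shZNF469 replicate 1, 2 and 3, and to 1, 1 and 1 without each shControl library. The higher calls came to 0, 2 and 0 and to 0, 0 and 0 in the same order.

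Partners of cytosolic HSP70 were read against the 9.90% of all tested genes called in either direction. Of 9 other HSP70 and HSP110 genes 0 were called by edgeR, 2 were higher and 1 lower at an unadjusted p under 0.05, and DESeq2 called 1 higher and 1 lower. HSPA4, another HSP110, was at 148 ± 4.14 CPM in shZNF469 and 162 ± 5.53 CPM in shControl and was not called. Of 19 cytosolic J-domain genes 1 was higher and 2 were lower. DNAJA1 was at 109 ± 4.46 CPM in shZNF469 and 134 ± 4.45 CPM in shControl (SD, n = 3 each; log2 fold change -0.31, SE 0.06, edgeR adjusted p = 0.016). DNAJC9, a histone-binding J-domain protein, had a log2 fold change of -0.60 (edgeR adjusted p = 0.0402), and DNAJA4 one of 0.41 (edgeR adjusted p = 0.0429). DNAJB2 had a log2 fold change of 0.23 (edgeR adjusted p = 0.0547). Of 11 nucleotide exchange factors and partners 1 was lower, HSPBP1, with a log2 fold change of -0.30 (edgeR adjusted p = 0.0371). J-domain genes called lower came to 0, 1 and 2 without shZNF469 replicate 1, 2 and 3 and to 0, 1 and 0 without shControl replicate 1, 2 and 3, and DNAJA4 lost its call whichever library was left out. Without shZNF469 replicate 2, the 1 higher J-domain gene was DNAJB2. HSPBP1 kept its call only without shZNF469 replicate 3.

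Of 23 HSP90 co-chaperone genes, 3 were lower and 1 was higher (median log2 fold change -0.13), beside 5.34% and 4.56% of all tested genes. NUDC was at 51.2 ± 3.16 CPM in shZNF469 and 66.0 ± 0.801 CPM in shControl (SD, n = 3 each; log2 fold change -0.37, SE 0.06, edgeR adjusted p = 0.0111). CACYBP had a log2 fold change of -0.37 (edgeR adjusted p = 0.0271). AHSA1, which stimulates the ATPase of HSP90, had one of -0.32 (edgeR adjusted p = 0.0306). AHSA2P, annotated as a pseudogene related to AHSA1, had one of 0.44 (edgeR adjusted p = 0.0429). Lower calls came to 1, 2 and 3 without shZNF469 replicate 1, 2 and 3 and to 0, 0 and 1 without shControl replicate 1, 2 and 3. AHSA2P kept its call only without shZNF469 replicate 3.

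Of 6 tested small heat-shock genes other than HSPB1, 1 was higher and 0 were lower in edgeR, with 1 lower at an unadjusted p under 0.05 and by DESeq2. HSPB8, which works with BAG3 in the clearance of damaged proteins, was at 53.8 ± 4.31 CPM in shZNF469 and 41.9 ± 3.00 CPM in shControl (SD, n = 3 each; log2 fold change 0.36, SE 0.08, edgeR adjusted p = 0.0327). CRYAB, alpha-B crystallin, was at 107 ± 14.6 CPM in shZNF469 and 99.3 ± 6.48 CPM in shControl and was not called. HSPB7 had a log2 fold change of -0.26 (edgeR adjusted p = 0.0933). The HSPB8 call held without shZNF469 replicate 2 and was lost when any other library was left out.

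Other folding machines were compared in the same way. Of 16 genes of the CCT chaperonin, which folds actin and tubulin, and of prefoldin, 3 were lower and 0 higher (median log2 fold change -0.19). CCT5 was at 111 ± 6.79 CPM in shZNF469 and 156 ± 10.98 CPM in shControl (SD, n = 3 each; log2 fold change -0.48, SE 0.07, edgeR adjusted p = 0.0085). CCT6A and CCT2 had log2 fold changes of -0.29 and -0.28 (edgeR adjusted p = 0.0216 and 0.0262). DESeq2 called 7 of the 16 lower and 0 higher, where it called 11.3% of all genes in each direction. In edgeR 0 were higher at an unadjusted p under 0.05. The edgeR count was 1, 3 and 1 without shZNF469 replicate 1, 2 and 3 and 0, 1 and 1 without shControl replicate 1, 2 and 3.

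Of 19 other mitochondrial chaperone and protease genes, 2 were higher and 1 was lower (median log2 fold change -0.06). Over all tested genes 4.56% were higher and 5.34% lower. HSPA9, the mitochondrial HSP70, was at 151 ± 5.82 CPM in shZNF469 and 175 ± 3.48 CPM in shControl (SD, n = 3 each; log2 fold change -0.21, SE 0.05, edgeR adjusted p = 0.0426). The protease gene OMA1 had a log2 fold change of 0.39 and PMPCB, a subunit of the protease that removes import signals, one of 0.22 (edgeR adjusted p = 0.0371 and 0.0426). With limma on log2(TPM + 1) PMPCB had a log2 fold change of 0.487 and was not called (adjusted p = 0.0906). Neither OMA1 nor PMPCB kept its call when any 1 library was left out, and HSPA9 kept its call only without shZNF469 replicate 3.

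Of 17 chaperone genes of the endoplasmic reticulum, 7 were lower and 0 higher (median log2 fold change -0.21). HSPA5, the HSP70 of that compartment, was at 485 ± 19.7 CPM in shZNF469 and 640 ± 21.0 CPM in shControl (SD, n = 3 each; log2 fold change -0.40, SE 0.05, edgeR adjusted p = 0.00381). HSP90B1, its HSP90, was at 681 ± 15.98 CPM in shZNF469 and 852 ± 16.8 CPM in shControl (SD, n = 3 each; log2 fold change -0.32, SE 0.04, edgeR adjusted p = 0.00393). DNAJB11 and PDIA3 had log2 fold changes of -0.37 and -0.21 (edgeR adjusted p = 0.012 and 0.0176), and limma on log2(TPM + 1) gave DNAJB11 -0.604. The lower calls came to 2, 8 and 6 without shZNF469 replicate 1, 2 and 3 and to 2, 4 and 2 without shControl replicate 1, 2 and 3. HSPA5 kept its call in all of these. DESeq2 called 12 lower and 0 higher, the same numbers as in edgeR at an unadjusted p under 0.05. Over all genes DESeq2 called 11.3% in each direction.

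Handling of cells can raise immediate-early genes. Of 16 such genes 2 were higher and 3 lower in shZNF469, beside 4.56% and 5.34% of all tested genes. EGR1 was at 8.29 ± 0.104 CPM in shZNF469 and 19.2 ± 2.94 CPM in shControl (SD, n = 3 each; log2 fold change -1.21, SE 0.12, edgeR adjusted p = 0.00174). ZFP36 had a log2 fold change of 0.48 and KLF2 one of -0.61 (edgeR adjusted p = 0.00907 and 0.0228). FOSB had 51, 38 and 33 counts in shZNF469 and is listed at 0 in all 3 shControl libraries. The part of handling in the chaperone values was not tested. Without shZNF469 replicate 1, 2 and 3 the higher calls came to 0, 2 and 2 and the lower to 1, 2 and 3, and without shControl replicate 1, 2 and 3 to 2, 2 and 2 and to 1, 1 and 1.

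**Figure D5:**
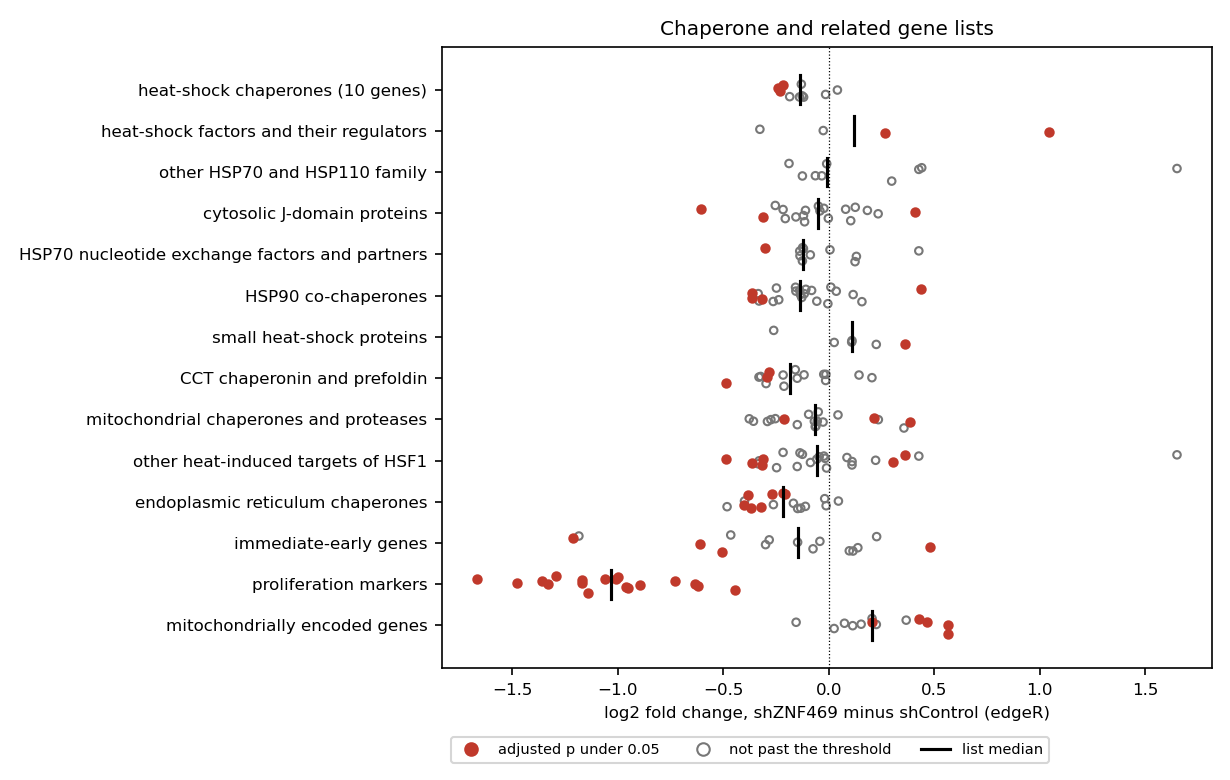
Log2 fold change (shZNF469 minus shControl) of each tested gene in the chaperone set and the related lists, with called genes marked and the list median drawn. Each gene has 1 point in every list that holds it. FOSB, listed at 0 in shControl, is left out. The points farthest right are HSPA6, which stands in several lists and is listed at 0 in shControl replicates 1 and 3. Endoplasmic reticulum chaperones have the median of -0.21 and the 10 heat-shock chaperones one of -0.13.

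The mean z score of the 10 members in each library was -0.42, -1.07 and -0.03 in shZNF469 and 0.23, 0.27 and 1.02 in shControl. It was lowest in shZNF469 replicate 2 and highest in shControl replicate 3. Over the 6 libraries, which include the group difference, Pearson's r with this score was highest for LTV1, PSMA5, ANXA2, JDP2 and NIPSNAP1 (0.998, 0.997, 0.994, 0.993 and 0.993) among 9215 genes with a mean of 10 CPM or more outside the lists. A total of 480 genes, or 5.21%, had an r above 0.9. None of the 5 was called by edgeR (adjusted p = 0.186, 0.0845, 0.113, 0.0512 and 0.207), and JDP2 had a log2 fold change of -0.43 in edgeR but -0.081 with limma on log2(TPM + 1).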

How the data were processed

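RNA of 6 libraries was sequenced after NEBNext Ultra library preparation, per the labels' protocols. HISAT2, StringTie and GRCh38.p14 are named, without tool versions, per the submitters' processing notes. The authors deposited whole-number counts of reads per gene and the TPM they computed. Neither strand setting nor annotation release is given in the sources used here.

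Counts were tested with edgeR 4.0.16 in R 4.3.3: filterByExpr with a minimum count of 10, TMM scaling, a two-sided quasi-likelihood F-test without covariates, and Benjamini-Hochberg adjustment over 16353 genes. CPM values are means ± SD. TPM served for levels and, with limma 3.58.1, for alternatives. DESeq2 1.42.0, other scaling, no filter, GC content and length offsets from mgcv 1.9.3, a replicate block and leaving out each library were also tried. Offsets used GENCODE 29 records, which matched 89.5% of listed genes. Shared windows, coding identity and exon overlaps also came from GENCODE 29, and coordinates and promoters from RefSeq.

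The members and related lists were chosen with earlier results of these data known, so the counts are descriptions. Some genes, such as DNAJA1 and HSPA4, stand in several related lists, so the counts of different lists overlap. Named genes were all members, all heat-shock factors, up to 4 genes of lowest p in each list and the 5 genes most like the members. Library pairs within groups differed by more than sampling noise (chi-square of 8.70 to 34.8 per degree of freedom). The scripts were tested on simulated data.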

Additional observations from a re-analysis of the deposited data

How the results depend on the processing

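With 3 technical replicates per group, the calls of HSPH1, HSP90AA1 and HSPD1 were lost when certain single libraries were left out. Over all 6 fits without 1 library their log2 fold changes lay between -0.27 and -0.22, -0.25 and -0.21, and -0.24 and -0.20. With GC content and length offsets they were -0.230, -0.199 and -0.160, and the calls were kept. The sign for HSPA1B and HSPB1, which were not called, did depend on single libraries. Low-count genes such as HSPA6 had little precision. No alternative moved the median of all genes by over 0.1. Over 16 alternatives the calls of HSPH1, HSP90AA1 and HSPD1 were lost in 10, 6 and 9, and each kept its direction in all 16. The cause of no change below was tested. For settings other than DESeq2 and the block with offsets, only lists whose count clearly moved from the main fit are named. Of 689 values of 46 other named genes, 511 kept call and direction, 135 lost the call, 37 gained one and 6 reversed.

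DESeq2 called 1638 genes higher and 1642 lower. HSPA8 was called at -0.13. Lower calls came to 1 heat-shock factor gene, 1 other HSP70, 4 J-domain, 2 exchange factor, 7 HSP90 co-chaperone and 1 small heat-shock gene. They also came to 7 CCT, 3 mitochondrial, 9 other heat-induced, 12 endoplasmic reticulum and 4 immediate-early genes. Higher calls came to 2 heat-shock factor, 1 other HSP70, 2 J-domain, 3 exchange factor, 1 HSP90 co-chaperone and 1 small heat-shock gene. They also came to 0 CCT, 3 mitochondrial, 3 other heat-induced, 0 endoplasmic reticulum and 2 immediate-early genes.

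With limma on log2(TPM + 1) and log2(TPM + 0.1), 233 and 191 genes were higher and 526 and 462 lower. No member was called (0), with HSPH1 at -0.23 and -0.24, HSP90AA1 at -0.25 and -0.25 and HSPD1 at -0.20 and -0.20. Both gave 1 heat-shock factor higher, 1 immediate-early gene higher, 0 J-domain and 0 HSP90 co-chaperone genes higher, 0 mitochondrial genes in either direction, 1 CCT and 4 endoplasmic reticulum genes lower, and the second gave 0 exchange factors lower. CRYAB reversed, to -0.069 in both.

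With GC content and length offsets, 1517 genes were higher and 1425 lower, with 1 other HSP70, 2 J-domain, 2 exchange factor and 4 immediate-early genes higher and 4 J-domain, 6 HSP90 co-chaperone, 1 small heat-shock, 6 CCT and 3 mitochondrial genes lower. HSF2 reversed, to 0.044. With library totals only, 1 member was lower, with HSPH1 at -0.23 and HSPD1 at -0.21 not called, 1 heat-shock factor gene was lower, 0 HSP90 co-chaperones higher and 1 mitochondrial gene higher. With no filter on low counts, HSPH1 (-0.24) was not called, and 0 J-domain genes higher and 0 mitochondrial genes in either direction were called.

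Deviations of same-numbered libraries from their group means correlated at -0.02, 0.08 and 0.03, so the replicate numbers were not taken to pair the libraries. With the replicate block, 1 member was lower, HSPH1 (-0.24) and HSPD1 (-0.22) not being called. There were 1 heat-shock factor gene lower, 0 J-domain genes higher, 0 exchange factors lower, 0 mitochondrial genes in either direction and 1 immediate-early gene higher. With the block and the GC and length offsets together, 1361 genes were higher and 1312 lower. HSPA8 was called at -0.082 and HSP90AB1 at 0.081, which made 1 member higher, and HSF2 was at 0.044. Higher calls came to 2 heat-shock factor, 0 other HSP70, 2 J-domain, 1 exchange factor, 1 HSP90 co-chaperone and 1 small heat-shock gene. They also came to 1 CCT, 3 mitochondrial, 5 other heat-induced, 0 endoplasmic reticulum and 2 immediate-early genes. Lower calls came to 1 heat-shock factor, 0 other HSP70, 4 J-domain, 0 exchange factor, 5 HSP90 co-chaperone and 1 small heat-shock gene. They also came to 6 CCT, 2 mitochondrial, 7 other heat-induced, 10 endoplasmic reticulum and 4 immediate-early genes.

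Without each library in turn, the log2 fold change lay between -0.27 and -0.22 for HSPH1, -0.25 and -0.21 for HSP90AA1, -0.24 and -0.20 for HSPD1, -0.056 and 0.056 for HSPA1B, -0.27 and 0.016 for HSPB1, -0.078 and 0.023 for HSF2, -0.0044 and 0.19 for CRYAB, and -0.11 and 0.000988 for HSPA1A and HSPA1B summed. Over all genes, 204 to 769 were higher and 333 to 854 lower. Members called lower ranged from 0 to 3. The higher and lower calls ranged from 0 to 2 and 0 to 1 for heat-shock factors, 0 to 1 and 0 to 2 for J-domain genes, 0 to 1 and 0 to 3 for HSP90 co-chaperones, and 0 to 2 and 1 to 5 for other heat-induced genes. Immediate-early genes gave 0 to 2 higher and 1 to 3 lower. Lower calls ranged from 0 to 1 for exchange factors, 0 to 3 for CCT, 0 to 1 for mitochondrial and 2 to 8 for endoplasmic reticulum genes. Higher calls ranged from 0 to 1 for small heat-shock genes and were 0 for mitochondrial genes throughout.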
